A study of Mus musculus with 203 samples.

Results

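Transcripts of 10 genes used by mast cells and basophils were followed in airway and lung parenchyma of mice given house dust mite extract, cigarette smoke or dexamethasone. The genes were named directly, as Cpa3, Tpsb2, Cma1, Mcpt1, Mcpt2, Mcpt4, Mcpt8, Kit, Fcer1a and Ms4a2, and not selected by a threshold, and they are 10 of the 43346 gene identifiers measured. Mast cells lie in tissue and store granules filled with proteases, which they release when allergen links immunoglobulin E (IgE) on their surface. Basophils carry the same high-affinity IgE receptor and circulate in blood. Mouse mast cells are commonly described as a mucosal kind, which expands in allergic inflammation and holds the chymases of Mcpt1 and Mcpt2, and a connective tissue kind, which lies around airways and vessels and holds Mcpt4, Cma1, Tpsb2 and Cpa3.

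The samples were bulk RNA-seq libraries of airway or parenchyma tissue, which the study separated by blunt dissection under a microscope. All mice were female, of strain Balb/C and 18 to 20 weeks old. At week 3, mice had received HDM extract into the nose 5 days a week for 3 weeks, or phosphate buffered saline (PBS), giving 11 PBS and 10 HDM airway libraries and 12 PBS and 10 HDM parenchyma libraries. At week 11 there were 10 libraries in each of 16 groups of tissue and exposure. HDM was then given 3 times a week from week 4, cigarette smoke (CS) 2 times a day and 5 days a week for 8 weeks with normal air (AIR) as control, and dexamethasone (DEX) during week 11. The exposures are written PBS.AIR, PBS.CS, HDM.AIR and HDM.CS, each with or without DEX. The library numbers run in adjacent airway and parenchyma libraries of the same exposure, but the labels do not say that neighbours come from 1 mouse or how mice were divided among libraries, so p-values measure the spread between these libraries. Library totals ranged from 13003087 to 40240680 estimated counts, with a median of 28090612.

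Levels are given as CPM, which are counts scaled to 1 common library total by the library's effective size. Fold changes are on the log2 scale with a standard error (SE), and p-values were adjusted over all genes tested, from limma-voom fits described with the processing. "Rose" and "fell" mean an adjusted p under 0.05. Bulk RNA cannot tell fewer cells of a type from less of a transcript per cell, and this holds for every level below. The tissue markers that travelled with the members are given beside the results they touch, and their part in those results was not tested.

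The chymase genes Mcpt1, Mcpt2, Mcpt4 and Cma1 and the basophil protease gene Mcpt8 lie close together on mouse chromosome 14. In mm10 coordinates Cma1 is at chr14:55941451-55944675 on the minus strand, Mcpt1 at chr14:56017971-56020384 and Mcpt2 at chr14:56042041-56044642 on the plus strand, Mcpt4 at chr14:56059629-56062313 and Mcpt8 at chr14:56082166-56085273 on the minus strand. All are annotated as protein-coding genes, with exons that span 998 to 1108 bases. Mcpt1 and Mcpt4 moved in opposite directions under HDM, and the 250 bases upstream of their start sites are printed to show how alike these nearby genes are there. The sequences are from RefSeq on GRCm38.p6, read 5′ to 3′ on the strand of the gene, at chr14:56017714-56017963 on the plus strand for Mcpt1 and at chr14:56062311-56062560 on the minus strand for Mcpt4. The capitals mark GATAA, the core that GATA transcription factors bind, or TTATC, its reverse complement.
Mcpt1: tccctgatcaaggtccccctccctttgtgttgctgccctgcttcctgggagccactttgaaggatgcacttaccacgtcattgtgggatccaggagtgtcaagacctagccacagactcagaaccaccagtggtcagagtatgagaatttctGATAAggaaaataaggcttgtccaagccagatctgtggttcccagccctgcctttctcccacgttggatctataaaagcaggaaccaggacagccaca
Mcpt4: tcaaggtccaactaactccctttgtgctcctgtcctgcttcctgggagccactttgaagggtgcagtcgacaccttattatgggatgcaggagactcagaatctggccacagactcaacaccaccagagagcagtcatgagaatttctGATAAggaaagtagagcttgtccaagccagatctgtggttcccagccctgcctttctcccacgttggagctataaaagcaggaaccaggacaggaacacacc
Aligned end to end, they shared 207 identical bases, 82.8% of the 250, with 39 mismatches and 8 gap positions. Every other pair among Mcpt1, Mcpt4, Cma1 and Mcpt8 shared fewer identical bases, the fewest 44.8% in Mcpt4 and Mcpt8. A GATAA or TTATC lay in the upstream windows of Cpa3, Cma1, Mcpt1, Mcpt4, Fcer1a and Ms4a2 and not in those of Kit and Mcpt8, and in 7418 of 32851 upstream windows of all genes (22.6%). A match is a description of the letters and not evidence of binding.

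Read sharing between members was small in the reference. Of 1009 stretches of 100 bases in Mcpt4 transcripts, 1 was also in Cma2, and of 3203 in Ms4a2, 13 were also in Ms4a4b, while the other members shared none with another gene. Tpsb2 and its tryptase paralog Tpsab1 shared none either, although the reference is of another strain than the mice.

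The members differed widely in level. In the 3 week PBS airway, mean CPM per kilobase of exon was 6.75 for Kit, 6.55 for Mcpt4, 5.84 for Cma1, 4.08 for Cpa3, 2.199 for Tpsb2, 1.41 for Mcpt2, 0.8725 for Fcer1a, 0.547 for Mcpt1, 0.376 for Ms4a2 and 0.204 for Mcpt8. The order among Kit, Mcpt4, Cma1 and Cpa3 lay within the spread of libraries, since the SD of Mcpt4 (8.99 CPM, n = 11) was above its mean of 7.26 CPM. In the 3 week HDM airway Mcpt1 was the most abundant of the 10 by this measure, at 12.4 per kilobase against 0.547 in PBS, followed by Mcpt2 at 8.21. Kit, a receptor that other cells also carry, was the most abundant in every group but the 3 week HDM airway. At week 11 it was at 8.42 per kilobase in airway and 19.05 in parenchyma in PBS.AIR mice, and at 6.82 and 8.85 in HDM.AIR mice.

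**Figure D1:**
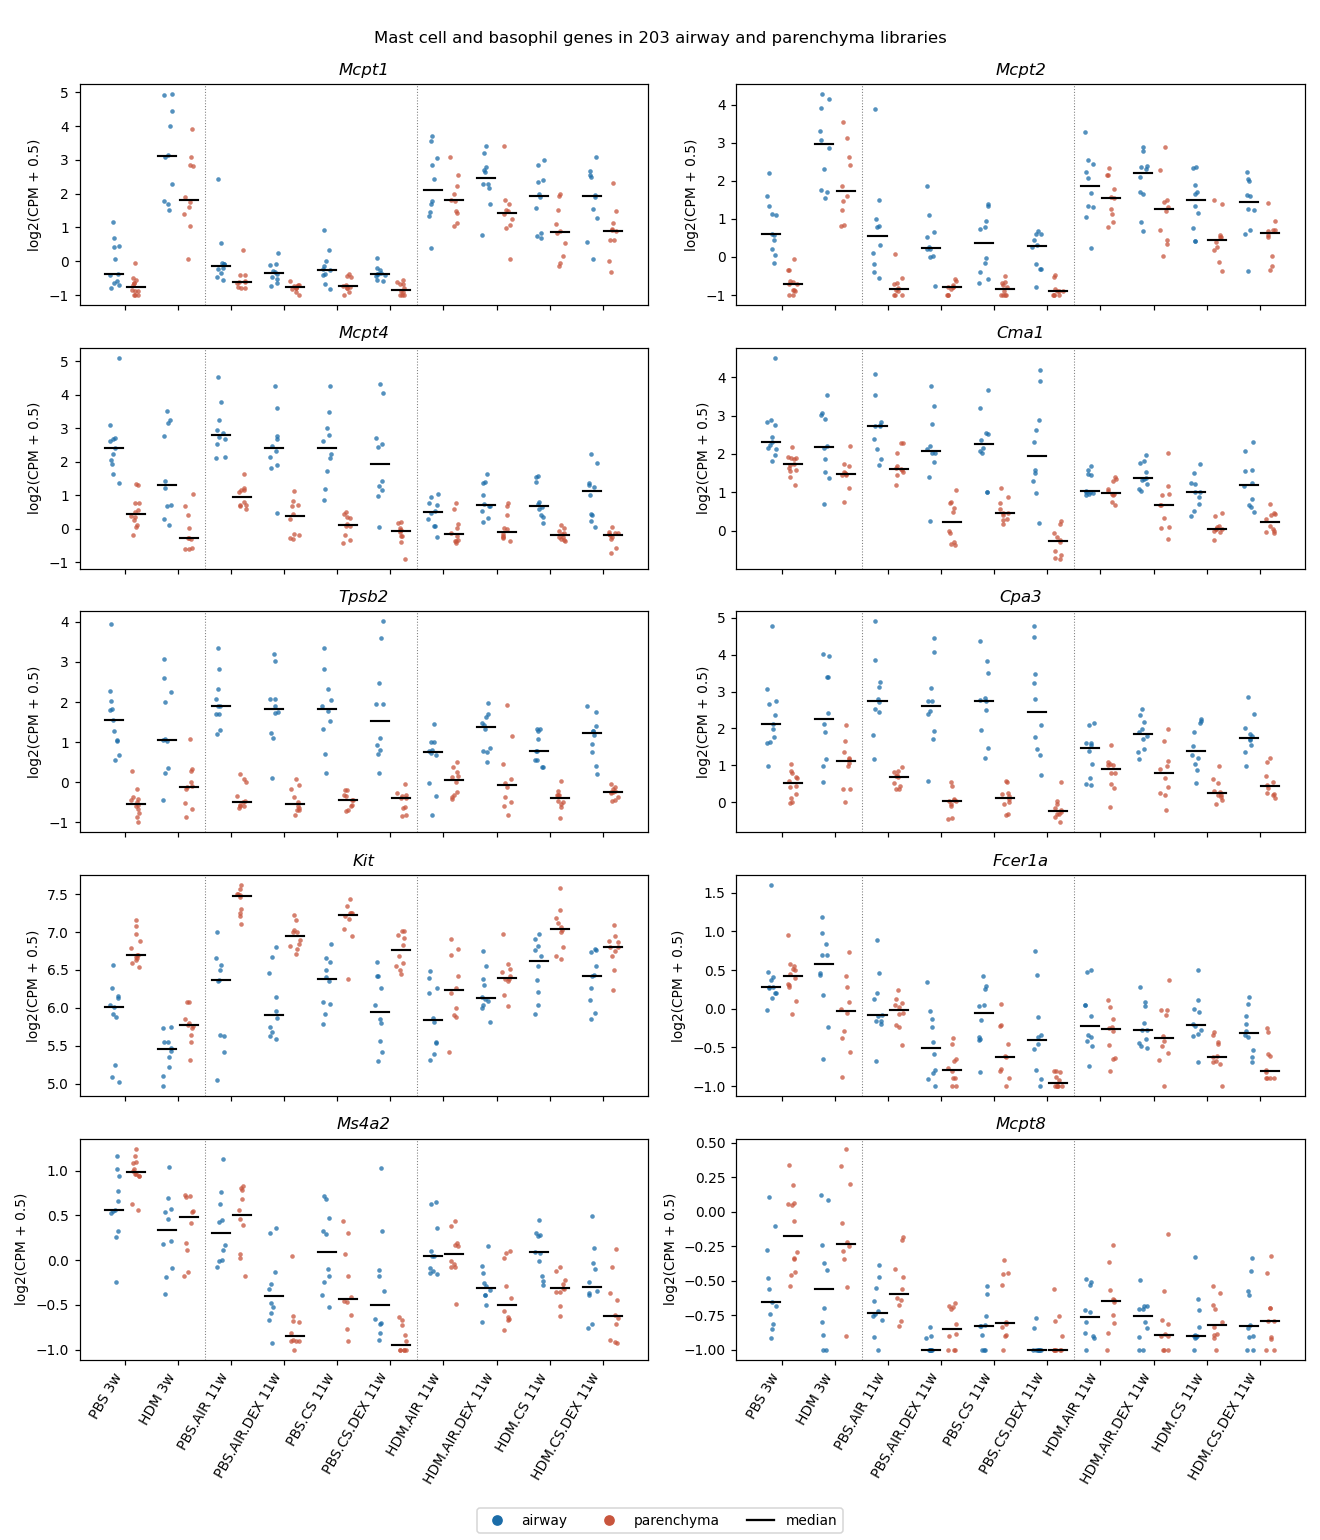
Level of each of the 10 genes in every library on a log2(CPM + 0.5) axis, by week and exposure, with airway in blue, parenchyma in red and a bar at the median of each group. In the week 3 airway the median of Mcpt1 is 0.273 CPM in PBS and 8.18 in HDM, and in the week 11 airway that of Mcpt4 is 6.45 in PBS.AIR and 0.918 in HDM.AIR.

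In PBS mice the genes divided by tissue. At week 3, 8 of 10 members differed between airway and parenchyma, 5 higher in airway and 3 lower, against 56.1% of all genes tested. Past a limit of at least 1 or at most -1 on the log2 scale there were 5 of 10, against 11.9%. Tpsb2, which encodes a tryptase, ran from 0.981 to 15.0 CPM in airway with a median of 2.46. In parenchyma it ran from 0 to 0.713 with a median of 0.190, so no airway library overlapped a parenchyma library. The difference was 3.80 on the log2 scale (SE 0.73, adjusted p = 2.8e-05). Mcpt4 likewise did not overlap between tissues, with 2.10 to 33.9 CPM in airway and 0.386 to 2.02 in parenchyma (log2 difference 2.53, SE 0.55, adjusted p = 1.5e-04). Mcpt2 was higher in airway by 3.42 (SE 0.93, adjusted p = 0.0019), Cpa3, a granule carboxypeptidase, by 2.35 (SE 0.58, adjusted p = 7.2e-04) and Cma1 by 0.96 (SE 0.31, adjusted p = 0.0084). Kit, the receptor for stem cell factor, had a log2 difference of -0.93 (SE 0.13, adjusted p = 1.5e-07), and was lower there, as were Mcpt8 at -1.34 (adjusted p = 0.019) and Ms4a2 at -0.55 (adjusted p = 0.031). The call of Ms4a2 was lost under 3 of the alternatives. Mcpt1 had a difference of 2.04 that did not pass (adjusted p = 0.20) but was called higher in airway with edgeR (2.202, adjusted p = 0.0076) and DESeq2 (2.30, adjusted p = 4.3e-04), and at week 11 with both tools as well. At week 11, in PBS.AIR mice, 6 of 9 tested members differed, against 56.4% of genes, all 6 of them past that limit, against 16.1%. Tpsb2 by 3.69, Mcpt2 by 3.67, Cpa3 by 2.66, Mcpt4 by 2.32 and Cma1 by 1.09 were higher in airway and Kit lower, at -1.25. The airway libraries also held cardiac muscle (6 of 6 genes higher), adipose (6 of 6) and smooth muscle (6 of 6) transcripts at week 3, in summed medians of 622.2 CPM against 28.95 for cardiac muscle and 409.7 against 26.5 for adipose. Their part in the tissue differences was not tested. At both weeks all 6 ciliated and all 5 club cell genes were higher in airway and all 6 genes of each alveolar epithelial type were higher in parenchyma, as the tissue labels say.

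The question of the HDM comparisons was how repeated allergen changed these genes in each tissue. Mcpt1 and Mcpt2, the mucosal mast cell chymases, rose in all 4 HDM comparisons. Kit, the stem cell factor receptor, fell in 3 of the 4. Among the connective tissue proteases, Mcpt4 fell in 3 of the 4, while Cma1, Tpsb2 and Cpa3 passed the test in the week 11 airway, where they fell. For Cma1 the week 11 airway and parenchyma changes were not shown to differ (-0.90, SE 0.50, adjusted p = 0.17). In total 4 of 10 members changed in the week 3 airway (2 up and 2 down), against 74.6% of all genes tested, and 5 of 10 in the week 3 parenchyma (2 up and 3 down), against 77.7%. At week 11, 6 of 9 changed in airway (2 up and 4 down), against 61.1%, and 4 of 9 in parenchyma (2 up and 2 down), against 59.5%. By this rule the shares of members were near or below the background, and the values of each gene carry the comparison. With a fold limit of at least 1 or at most -1 on the log2 scale, the 4 counts were 3, 4, 6 and 4, against 24%, 29.6%, 19.1% and 19.2% of genes. The 4 median log2 fold changes of the members were -0.36, -0.32, -0.38 and -0.56, beside -0.07, -0.13, 0.00 and 0.05 over all genes.

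Mcpt1 had a low level in PBS mice and a high one in HDM mice. In the week 3 airway it ran from 0.0720 to 1.74 CPM in PBS, with a median of 0.273, and from 2.37 to 30.3 in HDM, with a median of 8.18. All 10 HDM libraries were above every PBS library, and the difference was 4.40 on the log2 scale (SE 0.78, adjusted p = 3.2e-06). In the week 3 parenchyma the levels were 0 to 0.457 CPM (median 0.0860) in PBS and 0.537 to 14.7 (median 3.04) in HDM. These groups did not overlap either, and the difference was 5.11 (SE 1.19, adjusted p = 1.8e-04). At week 11 Mcpt1 in airway ran from 0.177 to 4.91 CPM with a median of 0.413 in PBS.AIR and from 0.817 to 12.5 with a median of 3.94 in HDM.AIR. Here 5 of 10 HDM libraries were above every PBS.AIR library, since 1 PBS.AIR library, X5, was at 4.91 while the others were at or below 0.951. The difference was 3.03 (SE 0.48, adjusted p = 1.5e-08). In the week 11 parenchyma the levels were 0.0736 to 0.765 CPM (median 0.152) in PBS.AIR and 1.54 to 7.93 (median 2.99) in HDM.AIR, without overlap, and the difference was 4.09 (SE 0.64, adjusted p = 9.1e-09).

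Mcpt2 followed it. In the week 3 parenchyma it ran from 0 to 0.457 CPM (median 0.112) in PBS mice and from 1.25 to 11.1 (median 2.84) in HDM, with every HDM library above every PBS library. The difference was 4.77 (SE 0.90, adjusted p = 7.7e-06). In the week 11 parenchyma it ran from 0 to 0.556 CPM in PBS.AIR, where 3 of 10 libraries were at 0, and from 1.23 to 4.53 in HDM.AIR, again without overlap. The difference was 5.09 (SE 0.80, adjusted p = 1.1e-08). In airway, where Mcpt2 was already present in PBS mice, the changes were 2.45 at week 3 (SE 0.45, adjusted p = 5.9e-06) and 1.66 at week 11 (SE 0.42, adjusted p = 3.3e-04), from medians of 1.02 to 7.39 CPM and of 0.994 to 3.20 CPM. In the week 11 airway no HDM.AIR library was above every PBS.AIR library, since X5 was at 14.3 CPM, and the call was lost with edgeR (log2 change 0.73, adjusted p = 0.16) and with DESeq2 (0.66, adjusted p = 0.23). Without X5 it was 2.08 in limma-voom and passed the test. The week 11 HDM change was smaller in airway, with an airway less parenchyma difference of -3.43 (SE 0.90, adjusted p = 0.0022). Such a difference was found for 4 of 9 members (Mcpt2, Tpsb2, Cpa3 and Kit), against 27.6% of genes, and for 3 of 9 with the fold limit, against 7.97%. Mcpt4 gained one with edgeR (-1.655, adjusted p = 0.017) and DESeq2 (-1.676, adjusted p = 0.011). At week 3 the tissue difference of Mcpt2 did not pass in the main fit. It passed with edgeR (-2.266, adjusted p = 0.018), DESeq2 (-2.395, adjusted p = 0.0039) and all libraries in 1 fit (-2.352, adjusted p = 0.037).

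The connective tissue chymases moved the other way. At week 11 Mcpt4 in airway ran from 3.83 to 22.7 CPM (median 6.45) in PBS.AIR and from 0.335 to 1.56 (median 0.918) in HDM.AIR. No library overlapped, and the log2 fold change was -3.03 (SE 0.435, adjusted p = 6.3e-10). Cma1 in the same tissue ran from 2.76 to 16.6 CPM (median 6.16) in PBS.AIR and from 1.39 to 2.71 (median 1.54) in HDM.AIR, also without overlap (log2 fold change -1.66, SE 0.33, adjusted p = 4.1e-06). In parenchyma at week 11, where 8 of 10 HDM.AIR libraries were below every PBS.AIR library, Mcpt4 went from a median of 1.45 to 0.390 CPM (log2 fold change -1.60, SE 0.585, adjusted p = 0.013). Cma1 there went from a median of 2.57 to 1.49 CPM, with a log2 fold change of -0.76 that did not pass (adjusted p = 0.072) but passed with edgeR (adjusted p = 0.029) and DESeq2 (adjusted p = 0.023).

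At week 3 limma-voom made 1 call among Mcpt4, Cma1, Tpsb2 and Cpa3, that of Mcpt4 in airway, and whether the tissues differed was not shown. Mcpt4 in airway went from a median of 4.76 CPM in PBS (range 2.10 to 33.9) to 1.99 in HDM (0.581 to 10.9), and 5 of 10 HDM libraries were below every PBS library. The log2 fold change was -1.13 (SE 0.42, adjusted p = 0.015), and the call was lost with edgeR (-0.81, adjusted p = 0.12), with DESeq2 (-0.79, adjusted p = 0.14) and in a permutation test (p = 0.12). Without library X81, a PBS airway library with 33.9 CPM of Mcpt4 while the next was at 8.00, the change was -0.84 (adjusted p = 0.039). Cma1, Tpsb2 and Cpa3 in airway had log2 fold changes of -0.43, -0.585 and -0.05, none past the test (adjusted p = 0.17, 0.21 and 0.91). In the week 3 parenchyma the log2 fold changes were -1.21 for Mcpt4, -0.335 for Cma1, 1.04 for Tpsb2 and 0.68 for Cpa3, none past the test (adjusted p = 0.17, 0.42, 0.28 and 0.36). DESeq2 called Tpsb2 (1.25, adjusted p = 0.025) and Cpa3 (0.91, adjusted p = 0.042) higher there, and library quality weights called Mcpt4 lower (-1.29, adjusted p = 0.036). In airway the week 11 change lay below the week 3 one, tested as a difference, for Mcpt4 by -1.98 (SE 0.59, adjusted p = 0.0063), Cpa3 by -1.77 (SE 0.55, adjusted p = 0.0086), Tpsb2 by -1.57 (SE 0.57, adjusted p = 0.028) and Cma1 by -1.30 (SE 0.435, adjusted p = 0.016). These were 4 of 10 members, against 28.4% of genes, and all 4 were past the fold limit, against 6.07%. With edgeR and DESeq2 the week 11 airway change was also lower for Mcpt1 (-1.82 and -1.87, adjusted p = 0.02 and 0.019) and Mcpt2 (-1.85 and -1.88, adjusted p = 0.016 and 0.022), which did not pass in limma-voom. In parenchyma 0 of 10 members differed between the weeks in limma-voom, edgeR or DESeq2, against 42.4% or, with the fold limit, 10.2% of genes, and 0 had an unadjusted p under 0.05 in limma-voom.

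Beside these falls in airway stood falls in the lists of other tissues. All 6 adipose genes and all 6 cardiac muscle genes fell in airway in both weeks, and all 6 smooth muscle genes fell at week 11. At week 11 their summed medians went from 520.2 to 115.1 CPM, from 1408 to 231.2 and from 1116 to 407.0. The ranges for adipose were 279.8 to 2227 CPM in PBS.AIR and 14.1 to 231.7 in HDM.AIR. The ranges for cardiac muscle were 293.1 to 3239 and 32.1 to 521.8, and for smooth muscle 514.4 to 1781 and 186.6 to 557.6. No gene of these 3 lists was at 0 in every library of an airway group. Their part in the airway values was not tested. In parenchyma at week 11, where Mcpt4 also fell, 0 of 6 cardiac genes changed, 1 of 6 adipose genes fell, and 2 of 6 smooth muscle genes rose and 1 fell. Their summed medians there went from 34.6 to 29.25 CPM, from 23.4 to 18.2 and from 234.6 to 249.7, and their part was not tested there either. Library X81 had a cardiac sum of 4535 CPM (the next in its group 2632), an adipose sum of 796.2 (highest of the others 1192) and a smooth muscle sum of 2345 (highest of the others 2399). Library X5 had an adipose sum of 2227 CPM (the next 1578), while its cardiac sum of 867.1 and smooth muscle sum of 1079 lay below the medians of the others, 1512 and 1151. Alveolar type II sums were low in X81 (4831 CPM, median of the others 18690) and X5 (6753, median 14110). So were capillary sums, at 1465 (median 2167) and 1085 (median 2827). The club cell sum was low in X81 (45760, median 71980) and high in X5 (86660, median 61810). The part of these lists was not tested.

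**Figure D2:**
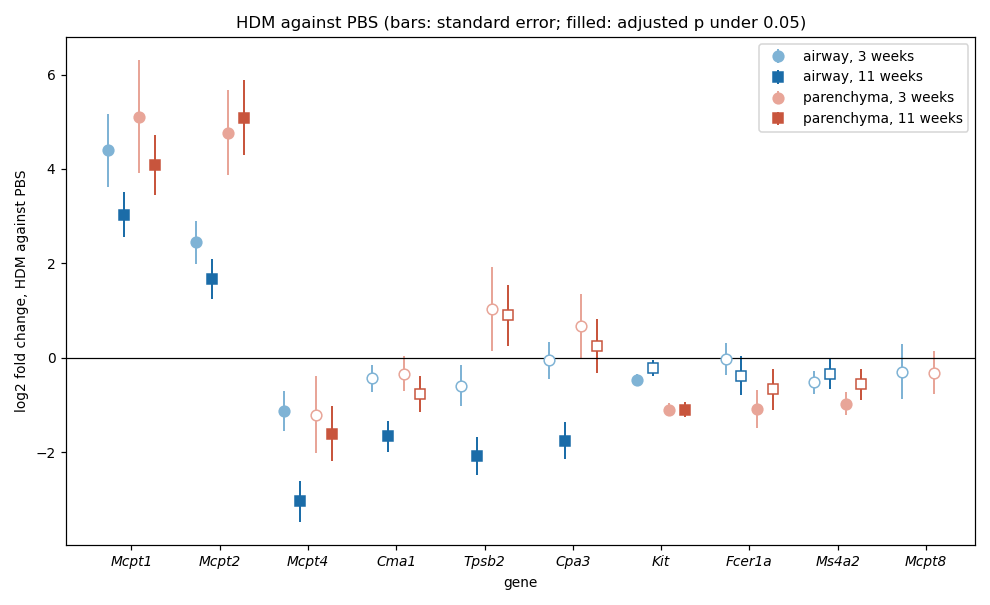
Log2 fold change of HDM against PBS for each gene, with SE bars, in airway and parenchyma at both weeks, where filled marks have an adjusted p under 0.05. Mcpt1 and Mcpt2 lie above 0 in all 4 comparisons with values from 1.66 to 5.11, while Mcpt4 lies at -1.13 to -3.03 and Kit at or below -0.21. Mcpt8 is drawn at week 3 alone because its counts were too low at week 11.

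The chymase values can also be read as a share of the counts that came from Mcpt1 and Mcpt2, out of Mcpt1, Mcpt2, Mcpt4 and Cma1, in each library. A rise of Mcpt1 and Mcpt2 alone raises this share, and in the week 3 parenchyma the changes of Mcpt4 and Cma1 did not pass the test. The share is a description of values already given and was not tested. In the week 3 airway it ran from 5.99% to 28.8% (median 14.9%) in PBS and from 20.4% to 88.1% (median 77.2%) in HDM, with overlap. In parenchyma it ran from 1.56% to 23.4% (median 4.53%) in PBS and from 41.4% to 83.6% (median 73.5%) in HDM, without overlap. At week 11 the medians were 10.0% in PBS.AIR airway, 71.04% in HDM.AIR airway, 4.73% in PBS.AIR parenchyma and 71.6% in HDM.AIR parenchyma. The medians of the HDM groups ran from 57.3% to 77.2%, and those of the other groups from 4.53% to 14.9%. These shares rested on 14 to 2036 counts a library.

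**Figure D3:**
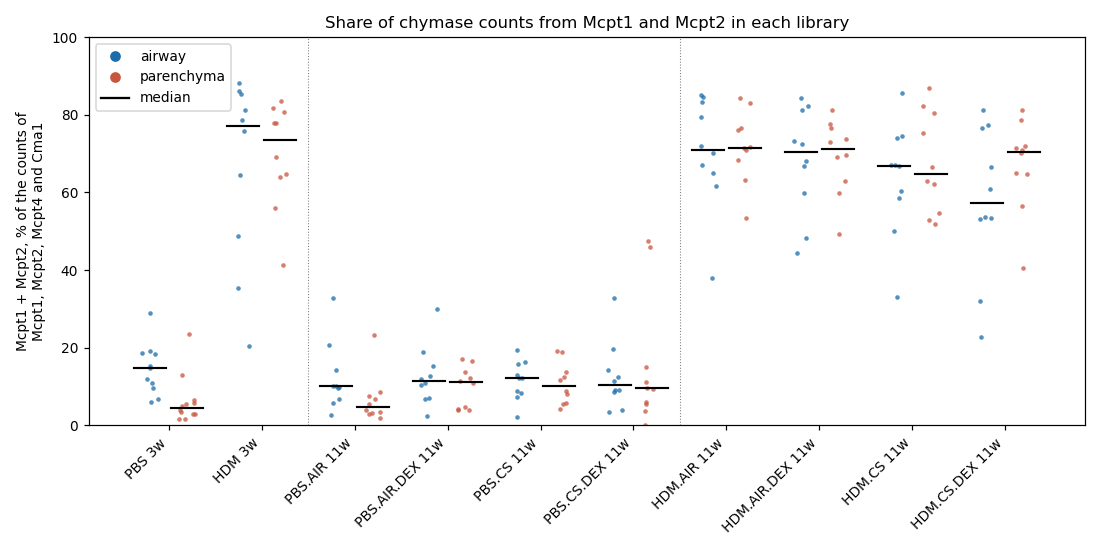
Share of chymase counts from Mcpt1 and Mcpt2 in each library, in percent, by week and exposure, with airway in blue, parenchyma in red and a bar at each median. The medians of HDM groups lie between 57.3% and 77.2%, and those without HDM between 4.53% and 14.9%.

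Tpsb2 and Cpa3 separated the tissues again. Tpsb2 at week 11 in airway went from 1.82 to 9.67 CPM (median 3.24) in PBS.AIR to 0.0710 to 2.26 (median 1.19) in HDM.AIR, and 9 of 10 HDM.AIR libraries were below every PBS.AIR library. The log2 fold change was -2.08 (SE 0.41, adjusted p = 3.8e-06). In parenchyma it was 0.90 (SE 0.64, adjusted p = 0.23), with medians of 0.215 and 0.549 CPM. The airway change was below the parenchyma one by -2.98 (SE 0.76, adjusted p = 0.0016). Cpa3 in the week 11 airway went from 1.76 to 29.5 CPM (median 6.25) to 0.888 to 3.95 (median 2.28), with 4 of 10 HDM.AIR libraries below every PBS.AIR library (log2 fold change -1.75, SE 0.395, adjusted p = 5.2e-05). In parenchyma its change was 0.24 (adjusted p = 0.73), and the 2 changes differed by -1.995 (SE 0.69, adjusted p = 0.022). Without X5 the airway change of Cpa3 was -1.51 and that of Mcpt4 was -2.85. Tpsab1, the tryptase paralog beside Tpsb2 on chromosome 17, rose in airway at week 3 by 0.92 (adjusted p = 0.03) and in parenchyma by 2.29 (adjusted p = 0.0074) and at week 11 by 2.23 (adjusted p = 0.0047). In the week 11 airway it had a log2 fold change of -0.01 (adjusted p = 0.99). Whether it differed from Tpsb2 was not tested.

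Kit, the receptor for stem cell factor (chr5:75574916-75656722, plus strand), fell under HDM in parenchyma at both weeks and in the week 3 airway. At week 3 it ran from 92.9 to 142.6 CPM (median 103.6) in parenchyma of PBS mice, and HDM mice had 39.1 to 66.99 (median 54.1). The groups did not overlap, and the log2 fold change was -1.09 (SE 0.13, adjusted p = 1.1e-09). At week 11 it ran from 137.2 to 196.4 CPM (median 177.9) in PBS.AIR and from 42.2 to 119.2 (median 74.6) in HDM.AIR, without overlap (-1.10, SE 0.16, adjusted p = 2.0e-09). In airway the changes were -0.47 at week 3 (SE 0.14, adjusted p = 0.0023) and -0.21 at week 11 (adjusted p = 0.24). With library quality weights the week 11 airway change was -0.492 and passed (adjusted p = 0.0022). The fall was smaller in airway than in parenchyma, by 0.63 at week 3 (adjusted p = 0.020), where Kit was 1 of 10 members and 17.3% of all genes differed (0 members and 2.22% with the fold limit), and by 0.88 at week 11 (adjusted p = 0.0017).

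Kit moved with endothelial genes across libraries. General capillary cells of the lung also carry Kit. Over all libraries its deviations from the group means were most like those of Cdh5 (r = 0.91), Kdr (0.908) and Sema6a (0.901), and over the 20 group means it was most like Exoc3l (0.971), Padi3 (0.969) and Ace3 (0.958). The libraries share a depth and a tissue makeup, and these are descriptions. Of the 11 capillary endothelium genes, 10 fell in both tissues under HDM at week 3, 8 in airway and 11 in parenchyma at week 11. Their summed CPM in the week 11 parenchyma ran from 4203 to 5714 (median 5087) in PBS.AIR and from 946.5 to 2727 (median 1750) in HDM.AIR, without overlap. None of the 11 was at 0 throughout a group. Their part in the Kit values was not tested. Kitl, which encodes stem cell factor, fell by 1.41 and 1.80 at week 3 in airway and parenchyma and by 1.09 and 1.67 at week 11 (adjusted p at most 8.3e-13).

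**Figure D4:**
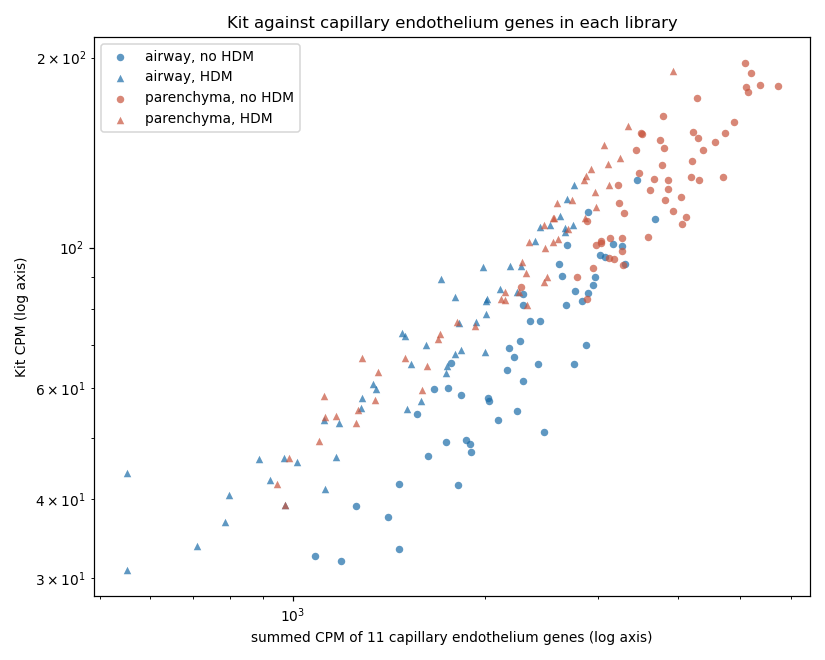
Kit CPM against the summed CPM of 11 capillary endothelium genes in each library, both on log axes, with airway in blue, parenchyma in red and triangles for HDM groups. The HDM.AIR parenchyma libraries of week 11 lie between 42.2 and 119.2 CPM of Kit and 946.5 and 2727 CPM of the capillary sum, below the PBS.AIR ones at 137.2 to 196.4 and 4203 to 5714.

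The IgE receptor genes, Fcer1a for the alpha chain that binds IgE (chr1:173221284-173227214, minus strand) and Ms4a2 for the beta chain that amplifies its signal (chr19:11615523-11623719, minus strand), were low in every group. Their upstream windows are printed because the pair moved together and because they differ in how many GATAA or TTATC they hold, 1 in Fcer1a and 3 in Ms4a2. They are RefSeq sequence on GRCm38.p6 at chr1:173227230-173227479 and chr19:11623720-11623969, both on the minus strand, with those letters in capitals.
Fcer1a: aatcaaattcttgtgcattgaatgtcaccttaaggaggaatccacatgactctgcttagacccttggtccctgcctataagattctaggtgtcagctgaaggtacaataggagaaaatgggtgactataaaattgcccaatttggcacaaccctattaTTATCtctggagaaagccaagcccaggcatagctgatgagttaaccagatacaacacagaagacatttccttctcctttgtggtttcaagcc
Ms4a2: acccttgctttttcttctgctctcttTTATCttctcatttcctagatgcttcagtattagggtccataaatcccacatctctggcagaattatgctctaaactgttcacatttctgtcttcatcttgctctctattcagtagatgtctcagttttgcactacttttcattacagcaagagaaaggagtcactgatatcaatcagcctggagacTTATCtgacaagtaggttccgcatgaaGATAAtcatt
Over the 20 group means the 2 genes correlated at 0.939 and over the deviations in all libraries at 0.556. Over the deviations Fcer1a was more like Cma1 (0.596) and Cpa3 (0.591), and Ms4a2 was nearly as like Cma1 (0.549), so the likeness was not particular to the pair. Under HDM at week 3, Ms4a2 in parenchyma ran from 0.971 to 1.87 CPM (median 1.47) in PBS and from 0.387 to 1.16 (median 0.895) in HDM, with 7 of 10 HDM libraries below every PBS library. The log2 fold change was -0.975 (SE 0.24, adjusted p = 4.1e-04). Fcer1a there went from a median of 0.838 to 0.478 CPM (-1.08, SE 0.40, adjusted p = 0.013), and lost the call without HDM parenchyma library X64 (-0.71, adjusted p = 0.074). At week 11 neither passed in either tissue, with log2 fold changes from -0.34 to -0.67. In airway at week 3 they were -0.03 for Fcer1a (adjusted p = 0.94) and -0.52 for Ms4a2 (adjusted p = 0.057).

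Mcpt8, the basophil protease, lay between 0 and 0.874 CPM in all 20 groups. Per kilobase of exon it was the lowest of the 10 in every airway group but not in every parenchyma group, as at week 3 in PBS parenchyma, where Mcpt8 had a mean of 0.4215 and Tpsb2 0.1389. At week 3 its log2 fold changes under HDM were -0.29 in airway and -0.31 in parenchyma, neither past the test (adjusted p = 0.66 and 0.54). At week 11 its counts were too low for the fit, with 0 to 12 counts a library, and a permutation test of mean log2(CPM + 0.5) adjusted over 13 comparisons was used. It gave adjusted p of 0.66 and 0.44 for HDM in airway and parenchyma.

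Smoke alone was compared at week 11 to ask how it changed these genes without allergen. In parenchyma 4 of 9 tested members changed, all of them lower, against 35.9% of genes, and in airway 0 of 9 passed in limma-voom, edgeR or DESeq2, against 13.7%. All 4 in parenchyma and 0 in airway were past the fold limit, against 5.33% and 2.78% of genes. At an unadjusted p under 0.05 in limma-voom 1 airway member, Mcpt4, would pass (p = 0.045). The airway log2 fold changes ran from -0.57 for Mcpt4 to 0.20 for Kit (adjusted p at least 0.18). In parenchyma Cpa3 (-0.86), Mcpt1 (-0.83), Mcpt2 (-0.35), Kit (-0.26) and Tpsb2 (-0.215) did not pass (adjusted p at least 0.23). The 4 were Fcer1a, Ms4a2, Cma1 and Mcpt4, the IgE receptor pair and the connective tissue chymases. Cma1 ran from 1.79 to 4.40 CPM (median 2.57) in PBS.AIR and from 0.627 to 1.64 (median 0.874) in PBS.CS, without overlap (log2 fold change -1.53, SE 0.42, adjusted p = 0.0022). Mcpt4 ran from 0.991 to 2.61 CPM (median 1.45) and from 0.245 to 0.901 (median 0.586), also without overlap (-1.37, SE 0.57, adjusted p = 0.048), and lost the call with no filter (adjusted p = 0.067) and in 1 fit of all libraries (adjusted p = 0.062). Without PBS.CS parenchyma library X173, its adjusted p was 0.054. Ms4a2 went from a median of 0.922 to 0.240 CPM (-1.62, SE 0.37, adjusted p = 2.1e-04), with 7 of 10 PBS.CS libraries below every PBS.AIR library. Fcer1a went from 0.490 to 0.150 CPM (-1.64, SE 0.495, adjusted p = 0.0054). In the same parenchyma comparison 6 of 11 capillary genes fell, and the summed median was 5087 CPM in PBS.AIR and 3676 in PBS.CS.

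Smoke added to HDM moved 4 of 9 in parenchyma, against 24.1% of genes, and 1 of 9 in airway, against 16.2%. With the fold limit the counts were 3 and 0, against 4.36% and 2.64%. Cma1 fell again in parenchyma, from 1.09 to 2.16 CPM in HDM.AIR to 0.340 to 0.867 in HDM.CS, without overlap (-1.503, SE 0.50, adjusted p = 0.017). Mcpt2 fell from a median of 2.44 to 0.866 CPM (-1.56, SE 0.45, adjusted p = 0.0055) and Mcpt1 from 2.99 to 1.33 CPM (-1.34, SE 0.40, adjusted p = 0.0076). The medians of Mcpt2 and Mcpt1 in PBS.CS parenchyma were 0.0578 and 0.0960 CPM. Kit rose, from a median of 74.6 to 131.5 CPM in parenchyma (0.77, SE 0.16, adjusted p = 9.2e-05) and from 56.8 to 97.97 in airway (0.63, SE 0.16, adjusted p = 0.0025). The effect of HDM on Kit in parenchyma differed between smoke and air mice by 1.03 (SE 0.23, adjusted p = 1.4e-04), 1 of 9 members against 36% of genes, or 10.5% with the fold limit, which Kit passed. In airway 0 of 9 differed so in limma-voom, edgeR or DESeq2, against 19.1% and, with the fold limit, 5.17%, and 0 had an unadjusted p under 0.05 in limma-voom. The capillary genes moved alongside, 9 of 11 higher in parenchyma and 8 of 11 in airway, with a summed CPM in HDM.CS parenchyma of 2336 to 3926 (median 2895). The comparisons with HDM.AIR share the same libraries.

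Dexamethasone, a glucocorticoid, was given alone to ask what it did in mice without allergen. In airway 2 of 9 members changed, against 14.9% of genes, and in parenchyma 4 of 9, against 22.6%, all of them lower. With the fold limit the counts were 2 and 3, against 2.41% and 3.16%. Ms4a2 in parenchyma ran from 0.384 to 1.27 CPM (median 0.922) in PBS.AIR and from 0 to 0.535 (median 0.0541) in PBS.AIR.DEX, with 9 of 10 DEX libraries below every PBS.AIR library. The log2 fold change was -3.29 (SE 0.46, adjusted p = 6.4e-09). Fcer1a ran from 0.224 to 0.680 CPM (median 0.490) and from 0 to 0.267 (median 0.0798), and the change was -2.46 (SE 0.55, adjusted p = 2.5e-04). Both DEX medians lay below 0.3526 CPM, the filter's equivalent of 10 counts, so the sizes of these 2 changes are uncertain. Cma1 did not overlap, with 1.79 to 4.40 CPM against 0.275 to 1.57 (-2.08, SE 0.46, adjusted p = 2.4e-04), and Kit fell from a median of 177.9 to 123.4 CPM (-0.455, SE 0.17, adjusted p = 0.034). In airway, Ms4a2 fell by 1.55 on the log2 scale (SE 0.36, adjusted p = 9.9e-04) and Fcer1a by 1.69 (SE 0.47, adjusted p = 0.0062). In parenchyma Mcpt1 (-1.12), Mcpt4 (-1.09), Cpa3 (-1.05), Tpsb2 (-0.34) and Mcpt2 (-0.14) did not pass (adjusted p at least 0.14), and in airway the 7 other tested members had an adjusted p of at least 0.13. The Fcer1a airway call was lost with edgeR (adjusted p = 0.056) and with DESeq2 (adjusted p = 0.05). Mcpt1 in airway was called lower with edgeR (-1.425, adjusted p = 0.028) and DESeq2 (-1.467, adjusted p = 0.015). In parenchyma DESeq2 called Cpa3 lower (-1.003, adjusted p = 0.041), and library quality weights called Mcpt4 lower (-1.102, adjusted p = 0.019).

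Mcpt8 fell too. Its mean was 0.0124 CPM in PBS.AIR.DEX airway, where 7 of 10 libraries were at 0 and none had more than 2 counts, against 0.121 in PBS.AIR (permutation p = 5.8e-04, adjusted over 13 comparisons p = 0.0075). In parenchyma it was 0.0636 against 0.196 CPM (permutation p = 0.002, adjusted p = 0.013). The remaining comparisons had an adjusted p of at least 0.32. Cd200r3, a basophil and mast cell receptor, fell by 2.24 in parenchyma (SE 0.36, adjusted p = 2.9e-07) and by 1.25 in airway (adjusted p = 0.003). Cyp11a1, a steroid enzyme that basophils and mast cells express, fell by 3.01 in parenchyma (adjusted p = 4.5e-07) and had a log2 fold change of -0.76 in airway (adjusted p = 0.13). Both belong to the basophil list, of which 3 of 6 tested genes fell and 0 rose in each tissue. Over all genes 22.6% changed in parenchyma and 14.9% in airway. The list counts of this paragraph are to be read against those shares. Of the 16 tested genes of the mast cell list 4 rose and 3 fell in parenchyma, and 3 rose and 2 fell in airway. Hdc, the histamine-forming enzyme, rose by 1.35 in parenchyma (adjusted p = 7.6e-15) and 0.555 in airway (adjusted p = 0.0015). Hpgds, a prostaglandin D synthase, rose by 0.89 in parenchyma (adjusted p = 1.2e-04), and Cd63 and Mitf rose in both tissues. Gzmb fell, with log2 fold changes of -1.47 in parenchyma (adjusted p = 9.0e-08) and -1.528 in airway (adjusted p = 1.0e-05). Srgn fell as well, at -0.618 and -0.594 (adjusted p = 1.4e-06 and 6.6e-06). Il1rl1 fell in parenchyma, at -0.607 (adjusted p = 0.0092). Among the genes of this list that passed in neither tissue were Tpsab1, Mrgprb1, Mrgprb2, Tph1 and Slc18a2 (adjusted p at least 0.11). Eosinophil genes fell as well, 4 of 7 tested in parenchyma and 3 of 7 in airway, from summed medians of 211.9 to 98.8 and 90.3 to 32.2 CPM, and 6 of 10 and 4 of 10 genes of innate and T helper lymphocytes of the type 2 response fell.

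In HDM mice dexamethasone moved 1 of 9 members in each tissue, against 28.6% of genes in airway and 28.5% in parenchyma. Both were past the fold limit, against 5.86% and 6.02%. Tpsb2 rose in airway from a median of 1.19 to 2.09 CPM (1.15, SE 0.44, adjusted p = 0.037), which was lost with edgeR (adjusted p = 0.089) and DESeq2 (adjusted p = 0.094). Ms4a2 fell in parenchyma from a median of 0.553 to 0.208 CPM (-1.07, SE 0.40, adjusted p = 0.032), which was lost with edgeR (adjusted p = 0.071) and DESeq2 (adjusted p = 0.061). Mcpt1 and Mcpt2 had log2 fold changes of 0.22 and 0.20 in airway and -0.68 and -0.65 in parenchyma, none past the test (adjusted p from 0.17 to 0.71). The effect of dexamethasone differed between HDM and PBS mice in parenchyma for Ms4a2 by 2.22 (SE 0.61, adjusted p = 0.0084) and for Fcer1a by 2.21 (SE 0.73, adjusted p = 0.031), 2 of 9 members against 12.4% of genes, or 2.12% with the fold limit, which both passed. Cma1 gained such a difference with edgeR (1.464, adjusted p = 0.032) and DESeq2 (1.516, adjusted p = 0.018). Kit gained one with library quality weights (0.582, adjusted p = 0.021) and with all libraries in 1 fit (0.644, adjusted p = 0.042). In airway 0 of 9 members had such a difference in limma-voom, edgeR or DESeq2, against 4.62% of genes, or 1.26% with the fold limit, while 2 (Tpsb2 and Fcer1a) had an unadjusted p under 0.05 in limma-voom (0.0086 and 0.014). In HDM mice that also breathed smoke, 0 of 9 members changed in either tissue in limma-voom, edgeR or DESeq2, against 9.3% and 7.86% of genes, or 2.04% and 2.03% with the fold limit. At an unadjusted p under 0.05 in limma-voom 1 member, Ms4a2, would pass in each tissue (p = 0.025 and 0.019).

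**Figure D5:**
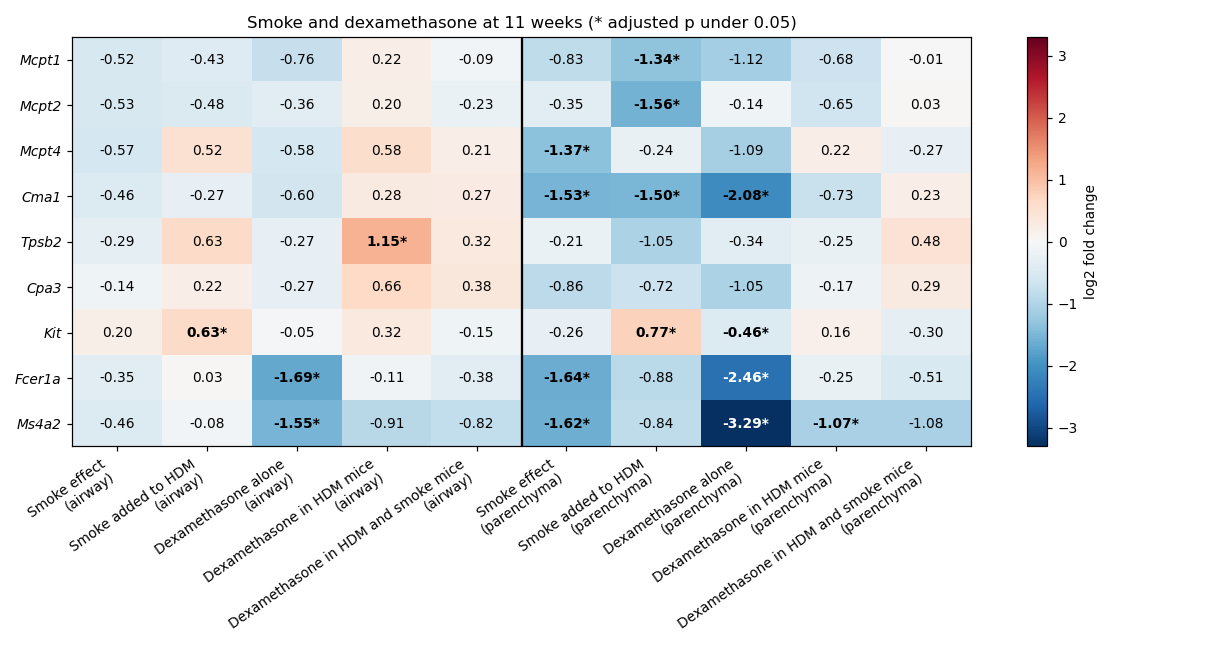
Log2 fold changes of 9 genes for smoke and dexamethasone at week 11, by tissue, in red above 0 and in blue below, with an asterisk and bold type where the adjusted p is under 0.05. The deepest blue cells are Ms4a2 (-3.29), Fcer1a (-2.46) and Cma1 (-2.08) under dexamethasone alone in parenchyma. Ms4a2 and Fcer1a had very low counts in those treated libraries, so the sizes of their changes are uncertain.

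Other genes of mast cells and of the IgE receptor pathway, from lists chosen with earlier results of these data known, were read in the 4 HDM comparisons in the order week 3 airway, week 3 parenchyma, week 11 airway and week 11 parenchyma. Over all genes 74.6%, 77.7%, 61.1% and 59.5% changed in these comparisons, and the counts of the lists are to be read against those shares. Of 20 genes of IgE receptor signalling, 18, 18, 19 and 18 rose and 1 fell each time, of 19, 19, 20 and 20 tested. Fcgr2b, the inhibitory IgG receptor, rose by 2.87, 3.63, 2.46 and 3.02, Syk, the kinase that the receptor recruits, by 1.95, 1.99, 1.77 and 1.55, and Fcer1g, its gamma chain, by 1.92, 2.49, 2.12 and 2.02 (adjusted p at most 1.3e-14 for these). These genes serve many myeloid cells. Ighe, the IgE heavy chain, was tested at week 11 and rose by 4.70 in airway (SE 0.73, adjusted p = 8.1e-09) and 2.86 in parenchyma (SE 0.76, adjusted p = 5.5e-04).

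Of 19 further mast cell genes, 15 were tested at week 3 and 16 at week 11. In the same order 10, 10, 7 and 9 rose and 4, 2, 4 and 2 fell, near the shares of all genes that changed (74.6%, 77.7%, 61.1% and 59.5%). Rgs13, a regulator of G protein signalling in mast cells that germinal centre B cells also express, rose by 3.19, 4.51, 3.25 and 5.62 (adjusted p at most 1.0e-07). Under dexamethasone in HDM mice Rgs13 fell by 4.42 in airway (SE 0.44, adjusted p = 5.5e-16) and by 4.67 in parenchyma (adjusted p = 2.5e-11). Mrgprb1, a mast cell receptor of the Mrgpr family, fell in airway by 1.95 at week 3 (adjusted p = 0.01) and 3.10 at week 11 (adjusted p = 3.0e-06), and Slc18a2, the vesicular amine transporter, by 2.58 and 1.12 (adjusted p = 9.7e-09 and 6.9e-05). Gata2, a transcription factor of mast cells that endothelium also uses, fell in all 4, by 1.60, 1.77, 1.23 and 1.87. Of the 6 basophil genes tested, 3, 3, 1 and 1 rose and 1 fell each time. Il4 rose at week 3 by 1.52 and 0.90 (adjusted p = 3.2e-04 and 0.013), and Itga2b, also a platelet gene, fell in all 4.

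Among the growth factors and their receptors, 13, 13, 11 and 11 rose and 3, 3, 4 and 2 fell of 17, 17, 19 and 19 tested, beside 74.6%, 77.7%, 61.1% and 59.5% of all genes that changed. Il13 rose by 4.93, 5.06, 2.81 and 3.16 (adjusted p at most 1.5e-06), Il10 by 3.23, 5.02, 1.51 and 2.93, and Csf2rb, the shared beta chain of the receptors for several cytokines, by 2.76, 3.26, 2.61 and 2.35. Among 17 tested genes of lipid and amine mediator synthesis, 7, 9, 7 and 8 rose and 5, 3, 3 and 2 fell. Hrh2, a histamine receptor, rose by 2.60, 3.01, 1.91 and 1.79, and Ptgds, a prostaglandin D synthase, fell by 1.53, 1.66, 1.785 and 1.56 (adjusted p at most 0.014).

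The members were also compared with all genes for likeness, as descriptions over libraries that share depth and tissue makeup. Within groups, Cpa3 was most like Tpsb2 (r = 0.801 over all libraries), Cma1 (0.785) and Mcpt4 (0.737), Mcpt1 most like Mcpt2 (0.721), Chil4 (0.634) and Tpsab1 (0.632), and Mcpt4 like Cpa3 (0.737), Mrgprb1 (0.71) and Epyc (0.687). Mcpt8 had no close partner, its highest being Scn3b at 0.438.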

How the data were processed

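The deposited table holds expected counts per gene, which the authors made from single-end RNA-seq reads against mm10. The submitters' processing notes name bcl2fastq 2.20.0.422, STAR 2.5.1b, RSEM 1.2.31 and kallisto 0.44.0, and which of the last 2 made the table is not given in the sources used here. Of its values above 0, 20.293% were not whole, and all were rounded. Libraries were grouped by week, tissue and exposure from their labels. Genes needed a CPM equivalent to 10 counts in at least 9 libraries, which left 17381 genes at week 3 (43 libraries) and 18250 at week 11 (160 libraries). Counts were scaled by TMM in edgeR 4.0.16 and fitted with limma-voom (limma 3.58.1, R 4.3.3), 1 fit per week with a mean per group, and comparisons between weeks used all libraries (18528 genes). Tests were two-sided with Benjamini-Hochberg adjustment over all genes tested.

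Permutation tests compared mean log2(CPM + 0.5) with 100000 resamples, and the smallest p they can give is 2.0e-05. On simulated counts, 91% of genes changed by 1 on the log2 scale were called in the airway HDM comparisons of each week. The changed genes were drawn from those above a minimum mean count, which Mcpt8 did not reach, nor did Fcer1a and Ms4a2 at week 11. Far fewer genes were changed than in the data. The share is therefore not a rate for the members with low counts. No 2 libraries of a group agreed within sampling noise among 931 pairs. The alternatives tried were DESeq2 1.42.0, its size factors, the quasi-likelihood test of edgeR, no filter, a higher filter, library quality weights, 1 fit of all libraries, and leaving out libraries. The members and gene lists were chosen with earlier results of these data known. All members were tested in every comparison where they passed the filter, and those that did not change are given by ranges in places. From each pathway list up to 3 called genes of largest change per tissue could be named, and not all are. Other pathway genes were named after their values were seen. Upstream sequences of the 8 members with a RefSeq entry were read. Tpsb2 and Mcpt2 had no entry.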

Additional observations from a re-analysis of the deposited data

Results flagged for a closer look

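In 9 of 180 pairs of gene and group of 10 libraries, 1 library stood apart from the rest by more than the 95% limit of Dixon's test, and chance marks about 1 in 20 groups. Library X5, PBS.AIR airway, was highest for Mcpt1 at 4.91 CPM and for Mcpt2 at 14.3 CPM. Library X186, PBS.AIR parenchyma, was highest for the same genes, with Mcpt1 at 0.765 CPM and Mcpt2 at 0.556 CPM. Library X32, HDM.AIR.DEX parenchyma, the shallowest of all, was highest for Mcpt1 at 10.1 CPM and for Mcpt8 at 0.395 CPM. In other groups Cpa3 was at 0.972 CPM in PBS.CS.DEX parenchyma library X76 and Ms4a2 at 0.535 CPM in PBS.AIR.DEX parenchyma library X108, both the highest. Kit at 83.1 CPM in PBS.CS parenchyma library X173 was the lowest of its group.

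In 12 results the effect itself differed between groups in a fitted interaction. The HDM effect in airway less that in parenchyma was 0.626 for Kit at week 3. At week 11 it was 0.884 for Kit, -1.995 for Cpa3, -3.429 for Mcpt2 and -2.978 for Tpsb2. The airway HDM effect at week 11 less that at week 3 was -1.768 for Cpa3, -1.303 for Cma1, -1.566 for Tpsb2 and -1.978 for Mcpt4. In parenchyma the interaction of HDM with smoke was 1.031 for Kit, and that of HDM with dexamethasone was 2.212 for Fcer1a and 2.216 for Ms4a2. Between tissues these were 1 of 10 members at week 3, against 17.3% of all genes, and 4 of 9 at week 11, against 27.6%. Between weeks they were 4 of 10 in airway, against 28.4%, and 0 of 10 in parenchyma, against 42.4%. For HDM with smoke they were 1 of 9 in parenchyma, against 36%, and 0 of 9 in airway, against 19.1%. For HDM with dexamethasone they were 2 of 9, against 12.4%, and 0 of 9, against 4.62%, in the same order. The 12 are to be read against those shares.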

How the results depend on the processing

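Of 1356 member values under alternatives that kept every library, 1297 kept their direction and side of the threshold, 19 lost the call, 40 gained one and 0 reversed, and with 1 library left out 1700 of 1708 did so, 3 lost the call and 5 gained one. The permutation tests among them were read at an unadjusted p. Counts below are members past the adjusted p and the fold limit, with those past the adjusted p alone named as such. A filter of at least 10 CPM in 9 libraries, which few members passed, left 0 in the HDM airway comparison of week 3 (3 without it) and 1 past the adjusted p, 1 in the parenchyma of week 3 (4), and 1 each in airway (6) and parenchyma (4) of week 11, each with 1 past the adjusted p. With no filter the week 3 parenchyma count was 2. The airway less parenchyma HDM difference of week 3 had 0, but 1 with edgeR, DESeq2 or all libraries in 1 fit, with 2 past the adjusted p. For dexamethasone in HDM mice the single member in each tissue became 0 with edgeR, DESeq2 and no filter by both rules, and in airway quality weights gave 0, with 2 past the adjusted p. The HDM by smoke interaction in parenchyma had 1, and 0 with edgeR, DESeq2 and quality weights. Quality weights gave 1 past the adjusted p, where there had been 0, in the airway interactions of HDM with smoke and with dexamethasone. In both it was Kit (0.558, adjusted p = 0.038, and 0.783, adjusted p = 0.006).

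Leaving out single libraries gave counts of 2 to 3 and 2 to 5 in airway and parenchyma at week 3 (3 to 5 and 4 to 5 past the adjusted p), 6 and 4 at week 11, and 0 for the HDM by smoke interaction in parenchyma without X173. In parenchyma at week 3, 9 of 43 libraries moved the count to 2, as Kit and Fcer1a lie near the fold limit. Mcpt4 in the week 3 airway was not called without X103 (-0.878, adjusted p = 0.058). Runs without X5, X32, X81, X108 or X173 outside the HDM comparisons were chosen after seeing the data. Over all genes, called counts moved by over 1.5 times in the week 3 tissue difference (676 with DESeq2, 385 in limma-voom), the parenchyma HDM by dexamethasone interaction (638 and 386), and with quality weights in airway dexamethasone in HDM and smoke mice (589 and 372) and HDM by dexamethasone (377 and 230). With the higher filter the 4 HDM counts were 1986, 2562, 1651 and 1777 genes, against 4168, 5145, 3493 and 3496. No paired analysis was possible because every library number in the labels is unique to 1 library, so that groups share none, and neighbouring numbers are not said to mark 1 mouse. The members other than Kit were at most 33.9 CPM in every library, and Mcpt8 had at most 19 counts, which limits what the depth can show.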
